A study of Mus musculus with 31 samples.

Results

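The distal colon is a tube of epithelium and lamina propria wrapped in smooth muscle, so that a piece of it carries RNA of both. Among 31 colon arrays, the 10 with the highest and the 10 with the lowest level of 3 smooth muscle genes were set apart and described as muscle-rich and muscle-poor. The arrays were ranked by the mean of Myh11, Cnn1 and Actg2, each as the log2 signal minus the log2 of the 75th percentile of that array, and 11 arrays lay between the sets. Treatment, day and sex were not used for the choice. Myh11 is the smooth muscle myosin heavy chain, Cnn1 is calponin, an actin-binding protein of the thin filament, and Actg2 is the enteric smooth muscle actin.

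All arrays came from BALB/c mice that had received a single injection of azoxymethane (AOM, a colon carcinogen) and then dextran sodium sulphate (DSS, which injures the mucosa) in the drinking water, so no mouse was free of this colorectal cancer (CRC) treatment. The mice were 4 to 6 weeks old at the start. The CRC mice had water by gavage, and the CRC + E171 mice had 5 mg/kg of body weight of E171, the food additive form of titanium dioxide, by gavage on 5 days a week. Colons were taken after 2, 7, 14 or 21 days from 2 males and 2 females in each of the 8 groups, except CRC at 21 days, which held 3 arrays. One-colour arrays measure a mean over all cells of the piece, so fewer cells of a type and less RNA per cell cannot be told apart.

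Smooth muscle of the gut wall contracts when calcium activates the kinase of the myosin light chain, and myosin then pulls on filaments of actin, tropomyosin and calponin. The filaments are fixed to the membrane by a dystrophin and sarcoglycan complex and by intermediate filaments of desmin and synemin. Serum response factor (Srf) with its partner myocardin (Myocd) is the known activator of these genes, and it binds a DNA motif named the CArG box. Between the muscle layers lie the enteric neurons and glia, while lymphocytes and most mast cells of mice sit in the mucosa.

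Probes of 60 bases that measured Cnn1 and Myh11 follow where their sequence reads as an open coding frame, with the positions on mm9 that the array annotation gives. They show what the ranking rests on, and are written in lower case since no base is singled out. The Cnn1 probe lay within chr9:21909945-21910166 on the plus strand, and the Myh11 probes at chr16:14202190-14202249 and within chr16:14207835-14208094 on the minus strand. A span above 60 bases means that the probe crosses an exon junction. The actin genes are near-identical over coding sequence, so the Actg2 signal may hold RNA of other actins.
Cnn1: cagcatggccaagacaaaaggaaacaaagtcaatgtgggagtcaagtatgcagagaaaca
Myh11, first: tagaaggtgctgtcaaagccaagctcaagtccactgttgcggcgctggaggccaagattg
Myh11, second: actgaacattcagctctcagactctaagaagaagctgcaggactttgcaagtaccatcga

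The signal of the Actg2 probe was 5.05 on average in the muscle-rich and 3.73 in the muscle-poor arrays. The Cnn1 probe shown gave 2.19 and 0.83, and the Myh11 probes gave 4.17 and 2.64 for the first and 2.49 and 0.83 for the second. Each of the 7 probes of the ranking genes was brighter in the muscle-rich arrays, with differences of 0.91 to 1.67 on the log2 scale.

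The mean of the 3 genes ran from 3.60 to 4.57 in the muscle-rich arrays with a median of 3.91, and from 2.31 to 2.84 in the muscle-poor arrays with a median of 2.68. The ranking was a slope and not a step. The last muscle-rich array was CRC + E171 at 21 days, male 2, at 3.60, and the first array outside was CRC + E171 at 2 days, male 1, at 3.53. At the lower end CRC at 14 days, female 1, at 2.91 stayed outside, and CRC + E171 at 7 days, male 2, at 2.84 was included. The arrays were chosen by these values, so the difference between the sets is given as a description with no test here and below.

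**Figure D1:**
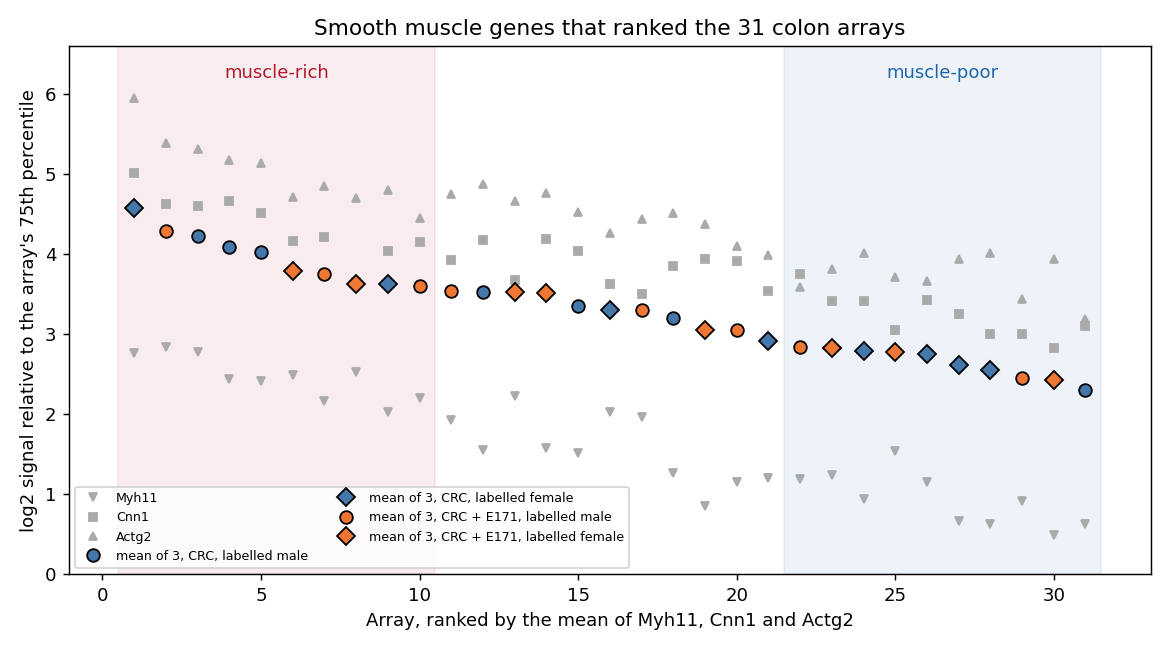
Level of Myh11, Cnn1 and Actg2 and their mean on each of 31 arrays (y axis, log2 relative to the 75th percentile of the array) against rank (x axis), with the 10 muscle-rich and 10 muscle-poor arrays shaded. Colours give the treatment and symbols the labelled sex; the mean falls from 4.57 to 2.31 without a gap between the sets.

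Both sets were mixed in treatment, with 5 CRC and 5 CRC + E171 arrays each. The muscle-rich set held 6 arrays labelled male, and the muscle-poor set held 3. All 4 days occurred in both sets, while CRC + E171 at 14 days and CRC at 2 days had no muscle-rich array and CRC at 14 days and CRC + E171 at 21 days had no muscle-poor array. The slides, taken as arrays with the same scan time, were uneven between the sets. Slides 3 and 8 each held 3 muscle-rich arrays and 1 muscle-poor array, and slide 2 held 0 and 3. The median share of spots well above background was 72.1% in the muscle-rich and 72.7% in the muscle-poor arrays, and the median 75th percentile of the signal was 2880 and 3101. The array labelled CRC at 14 days, male 2, lay among the muscle-rich arrays and had Xist, the X-inactivation RNA of females, at -1.60, which goes against its label.

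Some arrays carried markers of tissue that is foreign to the colon mucosa. An array was said to stand apart when the mean of a marker list lay more than 3 log2 units above the median of 31 arrays, a limit chosen after the data were seen. The muscle-rich array CRC at 7 days, male 1, lay 7.68 above the median for skeletal muscle genes and 5.61 above it for genes of squamous epithelium, the lining of the anal canal. The muscle-rich array CRC at 21 days, female 1, lay 4.44 above the median for squamous genes. In the muscle-poor set, exocrine pancreas genes lay 11.1 above the median in CRC + E171 at 2 days, female 2, 8.99 in CRC at 7 days, male 2, and 8.24 in CRC at 7 days, female 1. In all, 8 of 31 arrays stood apart in at least 1 of these 3 lists, and without them 8 muscle-rich and 7 muscle-poor arrays were left. The muscle-poor array CRC + E171 at 7 days, female 1, lay 3.29 above the median for hepatocyte genes and is not among the 8.

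A gene was called when its means in the sets differed by at least 1 on the log2 scale (2-fold) and no muscle-rich array overlapped with a muscle-poor one. Beside the ranking genes, 32 of 19842 genes were called higher in the muscle-rich arrays, which is 0.161% of the genes, and 9 were called lower, which is 0.0454%. The median difference over all these genes was 0.05. Of the 19842 genes 11364 were higher in the muscle-rich arrays, 545 of them at least 2-fold, and 8478 were lower, 583 of them at least 2-fold. The ranking genes themselves differed by 1.53 (Myh11), 1.32 (Actg2) and 1.14 (Cnn1), and Cnn1 overlapped between the sets, from 3.65 upward in the muscle-rich and up to 3.75 in the muscle-poor arrays.

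The number of called genes depended on how many arrays were compared and on the scaling. With 8 against 8 arrays 65 genes were called higher, with 12 against 12 arrays 14, and with 15 against 15 arrays 0. With quantile normalization and the arrays ranked again 13 genes were called higher and 0 lower, and with the authors' values 14 and 0. Over the same 10 and 10 arrays, quantile normalization gave 28 higher and 18 lower, and the authors' values 24 and 13. With slide as a block the counts were 78 higher and 236 lower, and with scan day as a block 26 genes were called lower. With a block, overlap was judged after the fitted block values were subtracted, so these counts do not compare with the others. Slides 2 and 6 held no muscle-rich array, and slide 4 held no muscle-poor array.

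Smooth muscle contractile genes were higher in the muscle-rich arrays in 58 of the 65 measured list members beside the ranking genes, with a median difference of 0.74. Of these members 8 were called higher and 0 lower, beside 0.161% of all genes. At least 2-fold higher were 23, beside 545 of all 19842 genes. The list and the ranking genes belong to the same tissue, so this count follows the choice of the arrays and is no separate evidence. Without the 8 arrays that stood apart the list median was 0.72, with 61 of 65 members higher.

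The thin filament had the largest median difference among the roles, with 11 of 11 members higher, 5 called and a median of 1.32. Acta2, the vascular smooth muscle actin, ran from 1.65 to 3.08 in the muscle-rich arrays with a median of 1.92, and from 0.43 to 0.93 in the muscle-poor arrays with a median of 0.69. Every muscle-rich array lay above every muscle-poor array, with a difference of 1.42, a 2.67-fold higher mean. Its probes differed in size, from 0.77 to 1.88 for the brighter ones, and the dimmest was not well above background on most arrays. With the highest probe alone the difference of Acta2 was 1.11, and with the stricter filter 1.25, both without overlap. Tagln, the actin-binding protein transgelin, ran from 6.24 to 7.08 with a median of 6.51 against 5.22 to 6.04 with a median of 5.43, a difference of 1.03 with no overlap. Pdlim3, a protein of the actin anchoring sites, was 1.65 higher, from 1.83 to 3.28 against 0.39 to 1.64. Tpm2 (tropomyosin), at 1.38, and Smtn (smoothelin, a marker of contractile smooth muscle), at 1.35, were called as well. Lmod1, which starts actin filaments, had the largest difference of the group at 1.80 but overlapped between the sets, from -3.45 to -1.03 against -5.72 to -2.91.

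The thick filament and its kinase gave smaller differences. Besides Myh11, the regulatory light chain Myl9 was 0.87 higher, from 6.53 to 7.52 against 5.57 to 6.65, with overlap. Mylk, the kinase of the light chain, ran from 0.14 to 1.06 against -0.35 to 0.12, a difference of 0.83 that did not overlap but stayed under 2-fold. Myh10 and Myh9, the non-muscle myosins of many cell types, differed by 0.38 and -0.14.

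The anchors of the filaments to the membrane were higher in 15 of 15 members, with 2 called and a median of 1.02. Sgca, the alpha subunit of the sarcoglycan complex, ran from -3.98 to 0.87 in the muscle-rich arrays with a median of -3.02, and from -5.51 to -4.20 with a median of -5.06 in the muscle-poor arrays. The difference was 2.20, and the highest value belonged to CRC at 7 days, male 1; over the other 9 muscle-rich arrays the difference was 1.80 and their highest value was -1.92. Synm (synemin) ran from 0.12 to 1.75 with a median of 1.18 against -1.11 to 0.05 with a median of -0.58, a difference of 1.64. Dmd (dystrophin) differed by 0.99, without overlap and just under 2-fold.

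Des (desmin), the intermediate filament protein of all muscle, was 0.99 higher with overlap, from -0.72 to 1.03 against -2.22 to -0.52. Its probes disagreed. The bright one ran from 2.58 to 4.58 against 1.52 to 2.87 with a difference of 1.40, and the dim one from -4.88 to -2.52 against -5.96 to -2.76 with a difference of 0.59. The mean over probes therefore understates the difference of the bright probe.

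Regulators of contraction were higher in 11 of 11 members of the phosphatase and kinase list, with a median of 0.52. Prkg1, the kinase through which nitric oxide relaxes smooth muscle, was the called member, from -2.67 to -0.92 against -4.24 to -2.91, a difference of 1.36. Pln, the inhibitor of the calcium pump of the reticulum, was 1.43 higher with overlap. Rock1 and Rock2, kinases found in most cells, differed by 0.05 and 0.10. Of the ion channels and receptors 10 of 13 were higher and 0 called, with Kcnmb1 (a subunit of the BK potassium channel) at 1.39, Ryr2 (a calcium release channel) at 1.33 and the muscarinic receptors Chrm3 and Chrm2 at 1.19 and 1.06. Chrm3 was well above background on 8 muscle-rich and 6 muscle-poor arrays. The tachykinin receptor Tacr2 differed by 0.03.

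Of the transcription factors 7 of 10 were higher and 0 called, with a median of 0.24. Myocd was 1.01 higher, from -2.10 to -0.71 against -2.87 to -1.67, and Srf was 0.57 higher, from 1.09 to 2.07 against 0.62 to 1.26. Mef2c, which is expressed in muscle and in B cells, was 0.77 lower at a mean of -3.18 against -2.41. The factors of the list thus went both ways, unlike the thin filament and the anchors.

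**Figure D2:**
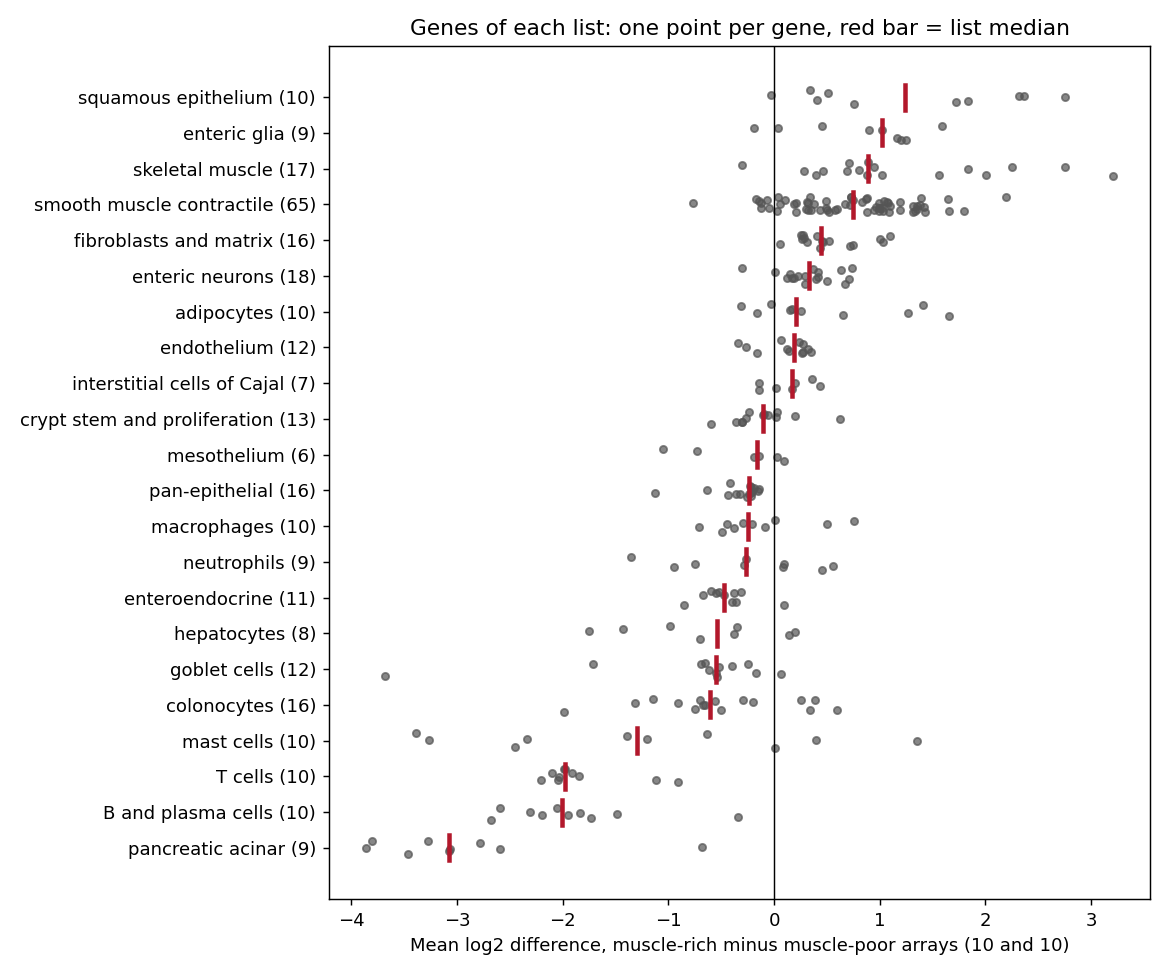
Difference of the mean log2 level between 10 muscle-rich and 10 muscle-poor arrays (x axis) for each gene of 22 marker lists (rows, number of genes in parentheses), without the ranking genes; red bars are list medians. The medians run from -3.07 for exocrine pancreas to 1.24 for squamous epithelium, with smooth muscle at 0.74.

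Outside the smooth muscle list, and leaving out genes with clone names, the called genes with the largest differences were Ckm and Casq2. Ckm, the muscle creatine kinase that buffers ATP, ran from -3.13 to 4.97 in the muscle-rich arrays with a median of -2.02, and from -4.57 to -3.39 with a median of -4.13 in the muscle-poor arrays. The array CRC at 7 days, male 1, gave the value of 4.97; the other 9 muscle-rich arrays lay between -3.13 and -0.64, still above all muscle-poor arrays, and their difference was 2.06 in place of 2.76. Casq2, a calcium store protein of the sarcoplasmic reticulum, ran from -2.82 to -0.04 with a median of -1.26 against -4.45 to -2.98 with a median of -3.54, a difference of 2.32. Both genes are used in striated muscle as well.

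Stac, an adaptor of calcium channels, was 2.19 higher, from -3.23 to -0.47 against -4.79 to -3.60. Myom1 (myomesin, a cross-linker of myosin filaments) was 1.97 higher, from -2.96 to -0.78 against -4.58 to -3.54. Fbxl22, an F-box protein of muscle, was 1.71 higher, Hspb6, a small heat shock protein of muscle, 1.66, and Slc2a4, the insulin-responsive glucose transporter, 1.63. Hspb6 reached 2.54 on CRC at 7 days, male 1, while the other 9 muscle-rich arrays reached at most 0.77. Inka2 and Pnck, an inhibitor of a p21-activated kinase and a calmodulin kinase, were 1.58 and 1.51 higher.

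The CArG box was searched in RefSeq promoters of GRCm38.p6, from 250 bases before to 50 after each start, on both strands. It was found for 5 of the 56 genes of the smooth muscle list that had a promoter entry (8.93%), for 3 of the 27 genes called higher that had one (11.1%), and for 1.81% of all genes with an entry. Myh11, Actg2 and Tagln had no entry in the promoter table used here. A match is a description of letters and not of binding. The stretches that follow show it upstream of the start, with the box in capitals: Fbxl22 at chr9:66514781-66514840 on the minus strand, Myom1 at chr17:71019433-71019492 on the plus strand, Dmd at chrX:82948747-82948806 on the plus strand, and Srf itself, with 2 boxes, at chr17:46556210-46556269 on the minus strand.
Fbxl22: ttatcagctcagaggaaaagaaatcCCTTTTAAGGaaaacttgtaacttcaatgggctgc
Myom1: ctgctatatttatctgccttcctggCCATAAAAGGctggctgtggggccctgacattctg
Dmd: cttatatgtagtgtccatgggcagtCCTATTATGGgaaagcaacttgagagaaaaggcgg
Srf: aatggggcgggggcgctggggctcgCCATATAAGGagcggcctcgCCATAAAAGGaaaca

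The first base of the box lay 222 bases before the start in Fbxl22, 99 in Myom1, 98 in Dmd and 82 in Srf. Of these genes Fbxl22 and Myom1 were called, while Dmd and Srf were higher by less than 2-fold.

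**Figure D3:**
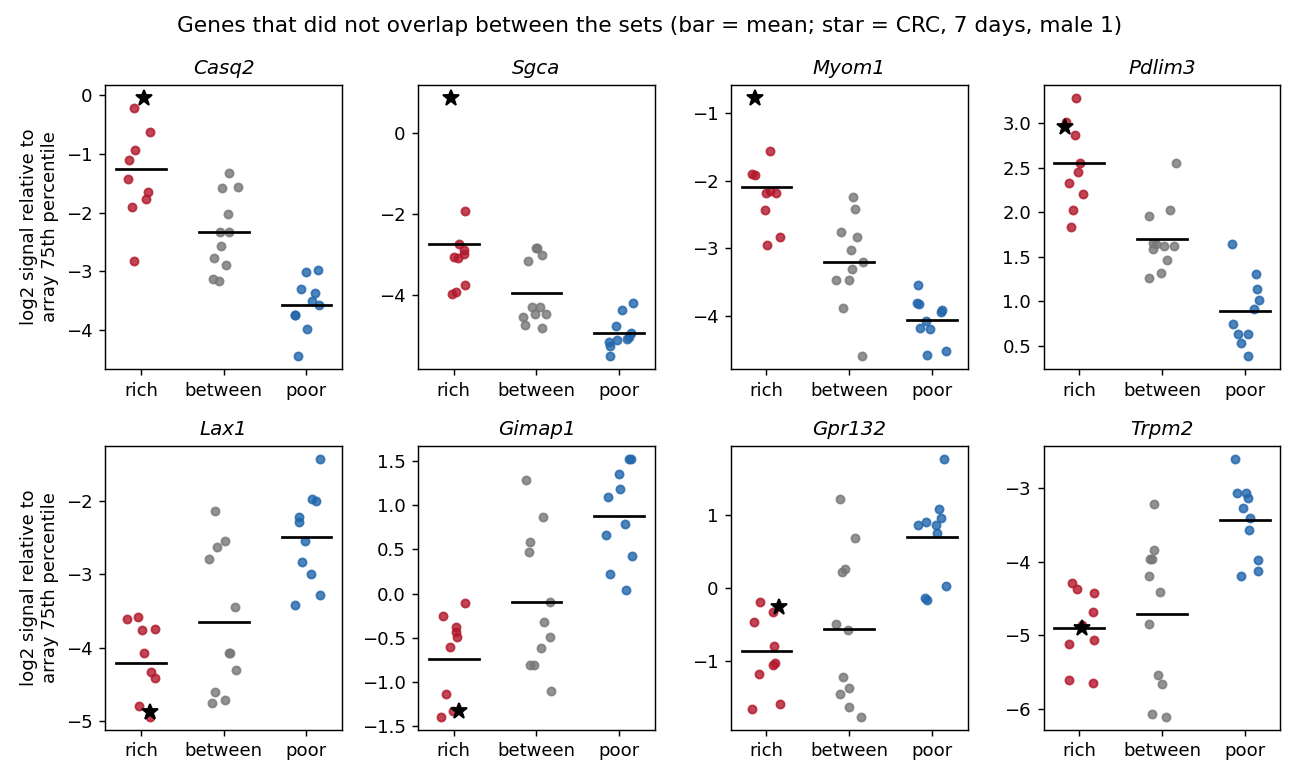
Level of 8 called genes (y axis, log2 relative to the 75th percentile of the array) on the 10 muscle-rich, 11 intermediate and 10 muscle-poor arrays; bars are means and the star is CRC at 7 days, male 1. The intermediate arrays have means between both sets, and Casq2 runs from -2.82 to -0.04 in the muscle-rich against -4.45 to -2.98 in the muscle-poor arrays.

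Among the 41 called genes, the mean of the 11 intermediate arrays lay between the means of both sets in 41. These arrays were not in either set, but they were ranked by the same genes.

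The genes called lower in the muscle-rich arrays include lymphocyte genes. Lax1, an adaptor that dampens signals of the lymphocyte antigen receptors, ran from -4.94 to -3.58 in the muscle-rich arrays with a median of -4.20, and from -3.41 to -1.42 with a median of -2.42 in the muscle-poor arrays, a difference of -1.72. Gimap1, a GTPase of lymphocyte survival, ran from -1.39 to -0.10 against 0.04 to 1.53, a difference of -1.62. The gap between the sets was small for both genes, with the sets next to each other.

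Gpr132, a receptor of immune cells, was 1.55 lower at a mean of -0.86 against 0.69, and Trpm2, a calcium channel of myeloid and other cells, was lower at -4.89 against -3.43. Rnase6, an antimicrobial ribonuclease of phagocytes, had means of -2.63 and -1.41, and Klrb1f, a receptor of natural killer and T cells, of -3.77 and -2.67. Of the 9 called genes 6 are named here.

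The fixed lymphoid lists lay lower as a whole but with wide overlap between arrays. All 10 T cell genes were lower, 9 of them at least 2-fold, with a median of -1.98 and 0 called. Of all 19842 genes 8478 were lower, 583 of them at least 2-fold, and 0.0454% were called lower. Cd3e, a chain of the T cell receptor complex, ran from -2.23 to -0.74 with a median of -1.41 against -1.56 to 0.89 with a median of -0.21. Cd8b1 had the largest difference of the list at -2.21 and ran from -3.56 to 0.73 against -3.08 to 1.51. All 10 genes of B and plasma cells were lower too, 9 at least 2-fold, with a median of -2.00 and 0 called. Cr2, a complement receptor of B cells, ran from -5.51 to -0.12 with a median of -1.58 against -1.25 to 1.70 with a median of 0.70, a 6.06-fold higher mean in the muscle-poor arrays. Jchain, the joining chain made by plasma cells, differed by only -0.35, from 2.33 to 5.56 against 4.27 to 5.15. Without the 8 arrays that stood apart the medians were -1.78 for T cells and -1.61 for B and plasma cells.

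Mast cell genes did not move as one. Mcpt1 and Mcpt2, the proteases of mucosal mast cells, were lower by 3.26 and 3.39 on average, with Mcpt1 at a median of -1.68 against 2.36 and with overlap. Cma1 and Tpsb2, proteases of connective tissue mast cells, differed by 0.00 and 0.40, and the tryptase Tpsab1 was 1.35 higher, from -6.36 to -1.09 against -7.89 to -4.04. Mcpt2 was well above background on 8 muscle-rich arrays and Tpsab1 on 6 muscle-poor arrays. Of the list 7 of 10 genes were lower and 0 called, with a median of -1.30, which was -2.16 with slide as a block and -0.85 with the authors' values, where 8 of the genes have one. Macrophage genes differed little, with a median of -0.25, Cd163 at 0.75, Mrc1 at 0.50 and Aif1 at -0.71.

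Of the enteric glia genes 8 of 9 were higher, 5 at least 2-fold, with a median of 1.02. Beside them, 11364 of all 19842 genes were higher, 545 at least 2-fold. S100b, a calcium-binding protein of glia, ran from -2.48 to -0.72 with a median of -1.63 against -3.62 to -1.77 with a median of -2.73. Sox10, the transcription factor of glia, was 1.02 higher. Of the enteric neuron genes 17 of 18 were higher with a median of 0.33, led by Phox2a at 0.73, Ret at 0.71 and Vip at 0.68. Within the CRC arrays alone, 5 against 5, the neuron median was -0.00055, and within the CRC + E171 arrays it was 0.64. Of the interstitial cells of Cajal, the pacemakers of the gut, 5 of 7 genes were higher with a median of 0.17, Ano1 at 0.44 and Kit at -0.14. Of these 3 lists 0 genes were called, which a share of 0.161% gives for lists of this size too.

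All 16 genes of fibroblasts and matrix were higher, with a median of 0.44 and 0 called. Mfap5, Pi16 and Lum, genes of adventitial and matrix fibroblasts, led with 1.10, 1.03 and 1.01. Endothelial genes were close to the median of all genes at 0.19, and mesothelial genes, those of the outer lining, stood at -0.17. Adipocyte genes had a median of 0.21, but the CRC arrays alone gave -0.34 and the CRC + E171 arrays alone 1.10, with Plin4 at 1.65 over all 20 arrays.

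Epithelial genes were lower in the full sets, in 16 of 16 pan-epithelial genes with a median of -0.23, in 12 of 16 colonocyte genes with a median of -0.61 and in 11 of 12 goblet cell genes with a median of -0.55. One array in each set was low in epithelial genes. The muscle-rich array CRC at 7 days, male 1, had a pan-epithelial mean of 0.36 beside a median of 4.21 in its set, and the muscle-poor array CRC at 7 days, male 2, one of 2.64 beside 4.24. Both were also the highest of their sets in neutrophil genes, with list means of 2.65 beside a median of -1.94 and 3.22 beside -1.89. The part of neutrophils in the epithelial values was not tested, and over the sets 4 of 9 neutrophil genes were higher with a median of -0.26. The neutrophil median ran from -0.79 to 0.10 over the 59 alternatives and had the other sign in 5. Without male 1 the medians of the 3 epithelial lists were 0.12, -0.05 and 0.15, and 0.15, 0.04 and 0.21 when the arrays were ranked again. Without both they were -0.06, -0.42 and -0.16. In the CRC + E171 arrays alone, which hold neither, they were -0.02, -0.22 and 0.01, and without the 8 arrays that stood apart -0.10, -0.30 and -0.01. Each of the 3 medians changed sign in at least 1 of these settings. Retnlb, an antimicrobial protein of goblet cells, had the largest difference at -3.69, from -4.75 to 3.03 with a median of -1.94 against -0.95 to 5.68 with a median of 2.11, and 0 goblet cell genes were called. Enteroendocrine genes were lower in 10 of 11 with a median of -0.48, and -0.33 without CRC at 7 days, male 1, when ranked again.

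Lists of other tissue moved with single arrays. Skeletal muscle genes had a median of 0.89 and 0.14 without CRC at 7 days, male 1, or 0.16 when the arrays were ranked again; their mean level ran from -4.27 to 3.67 in the muscle-rich and from -4.69 to -3.72 in the muscle-poor arrays. Ckm was the 1 member of 17 called, beside 0.161% of all genes called higher. Squamous genes had a median of 1.24, and 0.34 without the 8 arrays. Exocrine pancreas genes had a median of -3.07, and -0.19 without them. Hepatocyte genes had a median of -0.54, -1.25 without the 8 arrays and -0.65 when CRC + E171 at 7 days, female 1, was left out as well. The part of these tissues in the differences of genes they share with smooth muscle, such as Ckm, Sgca and Casq2, was not tested beyond the values without these arrays.

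**Figure D4:**
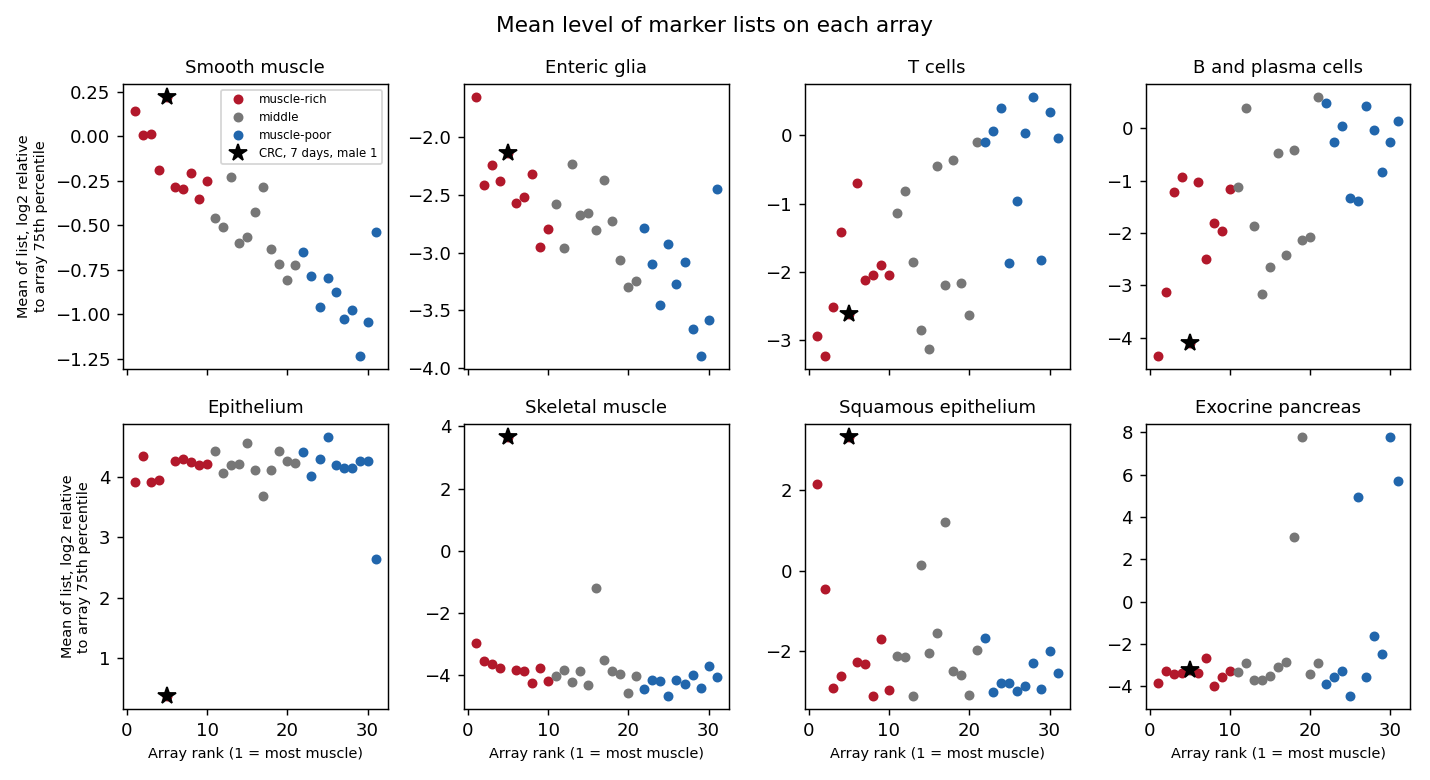
Mean level of 8 marker lists on each array (y axis, log2 relative to the 75th percentile of the array) against the rank by the 3 smooth muscle genes (x axis); colours give the sets and the star is CRC at 7 days, male 1. Its skeletal muscle mean is 3.67 and its pan-epithelial mean 0.36, while the lymphoid lists spread widely within the muscle-rich set.

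Leaving out CRC at 7 days, male 1, altogether and ranking again gave 21 genes called higher, and leaving out CRC at 7 days, male 2, gave 66. The genes called lower numbered 17 without CRC at 7 days, female 1, 17 without CRC + E171 at 14 days, female 1, and 14 without CRC + E171 at 14 days, male 1. Without the 8 arrays that stood apart, 61 genes were called higher and 17 lower, and 76 and 17 without the array high in hepatocyte genes as well. Every one of the 18 named called genes kept its direction in all 59 alternatives run, but the sets did not stay free of overlap. They did so in 39 of the 59 for Sgca, 40 for Inka2, 41 for Klrb1f and 44 for Pdlim3, and in 58 for Myom1 and Slc2a4. Some of the 59 could not move a gene. Leaving out any of the 11 intermediate arrays changes neither set, and calling at 1.5-fold keeps the same differences. CRC at 14 days, male 2, was left out both as a single array and as an added alternative. The named genes had also been picked for not overlapping on these arrays. The range over the 59 alternatives was 1.59 to 2.62 for Casq2, 1.82 to 3.84 for Ckm and -2.26 to -1.18 for Lax1.

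The labels allow a test of whether the muscle level differed with treatment, on each day and over all days, or with sex. The days were not compared with each other. Within a day the treatments lay on different slides, so treatment and slide cannot be told apart there. At 2 days the mean of the 3 genes was 3.51 ± 0.79 (SD, n = 4) in the CRC + E171 arrays. It was 2.97 ± 0.37 (SD, n = 4) in the CRC arrays. The difference was 0.53 with an exact permutation p of 0.257, two-sided. Each array was left out in turn, and without CRC + E171 at 2 days, female 2, the lowest of its group, the difference was 0.89. The unadjusted exact permutation p of 0.0286 is then the smallest that 3 against 4 arrays can give, and since that array is low in the tested value itself it is no support for a difference. At 7 days the CRC + E171 arrays had 3.26 ± 0.49 (SD, n = 4) and the CRC arrays 3.09 ± 0.74 (SD, n = 4), a difference of 0.17 and an exact permutation p of 0.657, and without CRC at 7 days, male 2, the difference was -0.10. The arrays of both treatments overlapped on each of these days.

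At 14 days the order was the other way, with 3.01 ± 0.49 (SD, n = 4) in CRC + E171 and 3.57 ± 0.54 (SD, n = 4) in CRC, a difference of -0.56 with an exact permutation p of 0.143, and -0.34 without CRC, male 2. At 21 days the means were 3.31 ± 0.29 (SD, n = 4) and 3.76 ± 1.02 (SD, n = 3), a difference of -0.46 with an exact permutation p of 0.371. It was -0.05 without CRC, female 1, -0.29 without CRC, male 1, and -1.03 without CRC, female 2. The smallest p such regroupings allow is 0.0286. Over all days the 16 CRC + E171 arrays had a mean of 3.27 and the 15 CRC arrays of 3.32, a difference of -0.05 with a two-sided permutation p of 0.809. Labelled males had 3.44 ± 0.60 (SD, n = 15) and labelled females 3.16 ± 0.58 (SD, n = 16), a difference of 0.27 with a permutation p of 0.207. After Benjamini-Hochberg adjustment over these 6 comparisons the smallest permutation p was 0.514, so none passed.

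**Figure D5:**
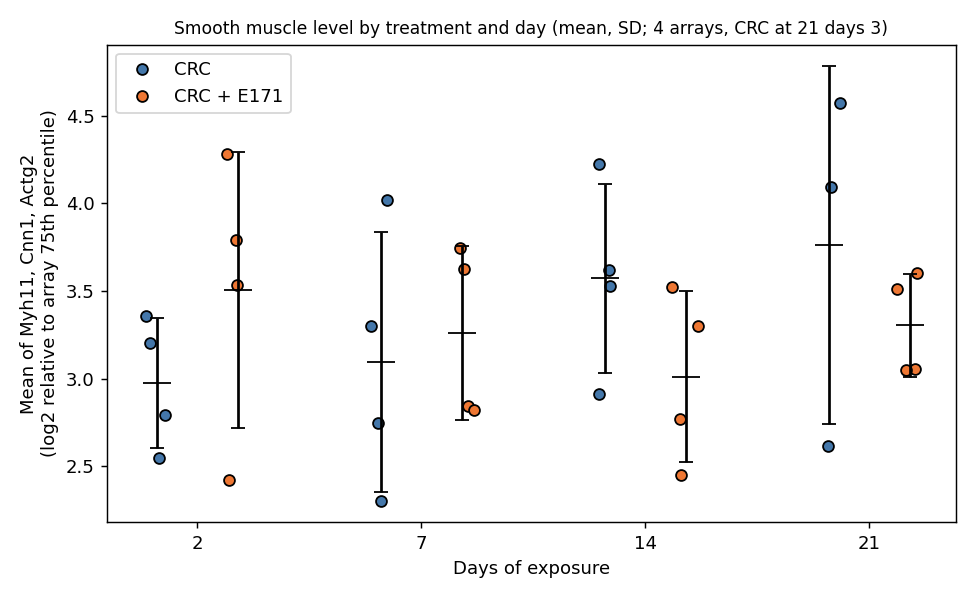
Mean of Myh11, Cnn1 and Actg2 on each array (y axis, log2 relative to the 75th percentile of the array) by day of exposure (x axis) and treatment; bars are the mean and SD of 4 arrays, or 3 for CRC at 21 days. The treatments overlap on each day, with means of 3.51 against 2.97 at 2 days and 3.31 against 3.76 at 21 days.

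The spread of the muscle genes within a group was large. Within CRC at 21 days the mean of the 3 genes ran from 2.62 to 4.57, nearly the whole range of the series, and these arrays share treatment and day. Within CRC + E171 at 21 days it ran from 3.05 to 3.60, the narrowest spread of the 8 groups by SD.

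For single genes, the limma model over the 8 groups gave 0 smooth muscle genes with an adjusted p under 0.05 for E171 on any day, of 68 measured. Over all genes, too, 0 passed on any day, while 541, 3329, 1584 and 1149 had an unadjusted p under 0.05 at 2, 7, 14 and 21 days. Single arrays decided this at 7 days, where limma passed 1197 genes at the adjusted threshold once CRC, female 1, was left out, 2 of them smooth muscle genes, and 541 once CRC, female 2, was left out. The 3329 genes at an unadjusted p became 1374 without CRC, male 1. The 541 genes at 2 days became 228 without CRC, female 1, and 869 without CRC, female 2. The 1584 at 14 days became 2791 without CRC + E171, male 2, and 1052 without CRC + E171, female 1, and the 1149 at 21 days became 765 without CRC, female 1. With array weights they were 2249, 1686, 3764 and 2924 on the 4 days. At 2 days normexp gave 1392 and the replicate block 952, and at 14 days the mean of the 3 genes as a covariate gave 2857. At an adjusted p under 0.05, the largest counts over the alternatives at 14 and 21 days were 49 and 11, with array weights. By a fold change of 1.5 and an unadjusted p under 0.05, 1, 6, 2 and 0 of the 68 smooth muscle genes passed on these days. The same rule called 1.72%, 12.4%, 6.35% and 2.67% of all genes, beside 1.47%, 8.82%, 2.94% and 0% of the smooth muscle genes. The order of these shares turned in some alternatives. At 2 days 17.6% of the smooth muscle and 1.65% of all genes passed without CRC + E171, female 2, and 16.2% and 4.42% with array weights. At 7 days 7.35% and 4.65% passed without CRC, male 1, and 20.6% and 14.2% with the mean of the 3 genes as a covariate. At 14 days the shares were 13.2% and 10.8% without CRC + E171, male 2, and at 21 days 13.2% and 4.48% without CRC, female 2.

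Of the ranking genes, Cnn1 at 14 days was the one to pass this rule, with a log2 difference of -0.78 (SE 0.37, limma, adjusted p = 0.609). Myh11 differed by 0.85 (SE 0.51, limma, adjusted p = 0.999) at 2 days and by -0.51 (SE 0.55, limma, adjusted p = 0.942) at 21 days. Des at 2 days ran from -0.57 to -0.19 in the 4 CRC + E171 arrays and from -1.40 to -0.98 in the 4 CRC arrays. The difference was 0.86 (SE 0.46, limma, adjusted p = 0.999), and the values of Des are means of its bright and its dim probe. The other members that passed were Ppp1r12b, a subunit of the myosin phosphatase, at 2 days with 0.72, Pde5a, a cyclic GMP phosphodiesterase, at 7 and 14 days with 0.80 and 0.67, and Tacr2 at 7 days with 1.24. At 7 days Gata6, Ednra, Foxf1 and Foxf2 passed as well, Gata6 at 0.98 and the other three lower with E171.

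The sign of the list's median was not the same on all days, a difference that was not tested. Of the 68 genes 63 were higher with E171 at 2 days, with a median of 0.31, and 54 were lower at 21 days, with a median of -0.27. At 21 days the direction rested on 1 array, since 40 were higher and 28 lower without CRC, female 1. At 14 days the median was -0.20. With the mean of the 3 genes as a covariate the medians were 0.04, 0.07 and 0.03 at 2, 14 and 21 days. The ranking genes are part of the list, and the covariate is made from them. At 7 days the median was -0.06, with 29 genes higher and 39 lower, and with the covariate it was -0.20, with 28 higher and 40 lower. Without CRC, male 1, and without the covariate, 49 were higher and 19 lower.

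For labelled sex, with the 8 groups in the model, 0 of 68 smooth muscle genes had an adjusted p under 0.05, and 59 were higher in males with a median of 0.22. By a fold change of 1.5 and an unadjusted p, 2 passed beside 2.99% of all genes. They were Chrm2, at 0.97 (SE 0.22, limma, adjusted p = 0.122), and Ryr2, at 0.60 (SE 0.28, limma, adjusted p = 0.540). Over all genes limma passed 11 at the adjusted threshold, 30 without the filter on dim probes, 5 with the stricter filter, 19 without CRC + E171 at 14 days, male 1, and 17 without CRC + E171 at 21 days, female 1. Cnn1, Myh11 and Actg2 were 0.40, 0.30 and 0.22 higher in labelled males, with adjusted p-values in limma of 0.518, 0.793 and 0.817.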

How the data were processed

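RNA of 31 colons was hybridised to one-colour Agilent arrays. The authors extracted the spots with Agilent Feature Extraction 10.7.3.1, and the deposited intensity of each spot is the processed signal, background-subtracted and not normalized between arrays. The authors also deposited log2 values, filtered, imputed and normalized by a method not given in the sources used here; these were an alternative. Here the log2 processed signal minus the log2 of the 75th percentile of the array was used, without outlier spots. A probe was kept when 60% of the arrays of at least 1 group were well above background with a mean log2 signal of at least 4, which left 42787 of 56605 probes. Of these 34410 matched a RefSeq gene, 27569 by accession, 6501 by symbol and 340 by synonym. Probes of a gene were averaged into 19845 genes, 57 of them without a value on some array. The number of arrays limits the precision.

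The members and marker lists were chosen with earlier results of these data known. Differences between muscle-rich and muscle-poor arrays are descriptions. Labelled groups were compared with limma 3.58.1 in R 4.3.3, with Benjamini-Hochberg adjustment over all genes, and the mean of the 3 genes with permutation tests (100000 resamples where not exact). Both steps were tested on simulated data. Named genes were the ranking genes, smooth muscle genes by role, the 12 largest called differences in each direction without clone names, up to 4 members of each other list, and for E171 and sex the ranking genes and Des; members that passed a threshold there were named after their values were seen. Some genes that this rule names are not reported here. The alternatives were other normalizations, filters, probes, numbers of arrays, rankings, blocks and models, and leaving out each array; the scales over the same arrays, the brightest probes, leaving out CRC at 14 days, male 2, leaving out the array high in hepatocyte genes, and leaving out CRC at 7 days, males 1 and 2, without a new ranking, were added after the data were seen. The scanner files give 8 scan times on 3 days. Arrays with the same scan time were taken as 1 slide, which the labels do not name. No such slide held both treatments of 1 day. Treatment within a day therefore cannot be told apart from slide. That each array is 1 mouse comes from the study's description. The p-values cover the spread between these mice and do not separate slide from treatment.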

Additional observations from a re-analysis of the deposited data

Results flagged for a closer look

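Of 77 checks of a group of 4 arrays or a set of 10 arrays, 3 values stood apart from the nearest other array by more than Dixon's critical value, and chance gives about 1 in 20. All 3 belonged to the muscle-rich array CRC at 7 days, male 1. They were the highest muscle-rich values of Ckm (4.97), Sgca (0.87) and Des (1.03). The same array had the highest mean of the skeletal muscle genes of its set (3.67) and the lowest of the pan-epithelial genes (0.36); the part of these tissues in the values was not tested.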

How the results depend on the processing

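The genes called higher numbered 32 and those called lower 9. Where one of these counts moved, higher and lower were 13 and 0 with quantile normalization, 14 and 0 with the authors' values, 18 and 0 when ranked without Myh11, and 14 and 0 with 12 against 12 arrays. They were 0 and 0 with 15 against 15, 150 and 206 in the CRC arrays alone, 135 and 33 in the CRC + E171 arrays alone, 61 and 17 without the 8 arrays that stood apart, and 76 and 17 without the array high in hepatocyte genes too. Without CRC at 7 days, males 1 and 2, and with no new ranking 66 were higher. They were 159 and 227 with treatment and day group as a block, 78 and 236 with slide as a block, and 65 and 14 with the replicate block of labelled sex and number. With 8 against 8 arrays 65 were higher; 19 were lower when ranked without Cnn1, 26 with scan day as a block and 18 with quantile normalization over the same arrays. Leaving out each array gave 21 to 66 higher and 8 to 17 lower. The cause of these changes was not tested. With a block, overlap was judged after the fitted block values were subtracted, so the block counts do not compare with the others.

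Smooth muscle genes past 1.5-fold and an unadjusted p numbered 1, 6, 2 and 0 on the 4 days. They were 0, 14, 6 and 1 with the mean of the 3 genes as a covariate, 11, 1, 4 and 2 with array weights (shares of all genes in these settings were 1.91%, 14.2%, 11.6% and 4.76%, and 4.42%, 4.21%, 13.3% and 6.94%), and the replicate block gave 1, 6, 2 and 0. At 2 days normexp gave 2, and at 21 days the authors' values gave 2 and the highest probe 1. Without CRC at 14 days, male 2, they were 2 at 2 days and 1 at 14 days. Leaving out each array gave 1 to 12 at 2 days, 4 to 11 at 7, 0 to 9 at 14 and 0 to 9 at 21 days, and 0 to 2 with an adjusted p at 7 days. For labelled sex the count of 2 was 1 with normexp and with the covariate, and 1 to 7 without single arrays. The difference of the 3-gene mean ranged from 0.27 to 0.89 at 2 days, -0.10 to 0.47 at 7, -0.78 to -0.34 at 14 and -1.03 to -0.05 at 21 days. Same-numbered arrays of both treatments share a labelled sex and lay on different slides, number 1 on slides 1 to 4 and number 2 on slides 5 to 8. The labels do not say that a number marks a batch, and the correlations of their deviations ran from -0.18 to 0.48, so they were not taken as pairs. With the replicate block 675 in place of 342 genes passed 1.5-fold and an unadjusted p at 2 days, and 836 in place of 529 at 21 days. Over the 59 alternatives list medians ran from 0.63 to 1.20 for glia, 0.0059 to 0.25 for Cajal cells, 0.28 to 0.57 for fibroblasts, -0.44 to -0.11 for macrophages and -0.88 to -0.07 for enteroendocrine cells. Dim signals limit the genes below an array's background, such as Chrm3.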
